A study of Homo sapiens with 12 samples.

Results

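Laminin-332 is a basement membrane protein of epithelia, whose chains include those encoded by LAMA3 and LAMB3. Cells hold it through integrins, chiefly the α6β4 integrin of hemidesmosomes encoded by ITGA6 and ITGB4, while the α2 chain encoded by ITGA2 pairs with β1 to bind collagen and laminin. Urokinase (PLAU) bound to its receptor (PLAUR) turns plasminogen into plasmin at the cell surface, and the secreted metalloproteinases MMP1 and MMP7 cut collagen and other matrix proteins. Tumor cells use this set of genes to hold on to matrix and to cut through it, and several of them are known targets of the transcription factor AP1, which acts downstream of MAPK signaling. The 9 genes LAMA3, LAMB3, ITGA2, ITGA6, ITGB4, PLAU, PLAUR, MMP1 and MMP7, of 20020 protein-coding genes in GENCODE, were taken by name as a set of related function, with earlier results of these data known.

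HCT116 cells, a human colorectal cancer line, were left untreated or exposed for 24 hours to cobimetinib at 1 μM or to TNFα at 100 ng/ml. The former blocks MEK1 and with it the MAPK pathway, and the latter is an inflammatory cytokine that signals to NF-κB and AP1. In each condition 2 replicates were profiled by CUT&RUN for H3K27ac, the acetyl group on lysine 27 of histone H3 that is found at promoters and enhancers in use. The assay tethers a nuclease to an antibody on the chromatin and sequences the DNA that it cuts free. The labels name no vehicle for the untreated cells, the methods speak of replicates of the treatment without saying whether these were separate cultures, and libraries made with control IgG were not analysed here.

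The data are 6 deposited peak lists that hold 69813 to 124771 peaks each, with a score per peak and no read counts, so sequencing depth is unknown. Because such scores grow with depth, each peak was given its rank within its own list, with rank 1 for the highest score, and only ranks were compared between libraries. The 20000 highest peaks of each library were merged into 38598 regions, of which 51 lay within 50 kb of a transcript start of one of the 9 genes or inside the gene. A region needed a peak among the 20000 highest of only 1 library. Of the 51, 17 (33.3%) had it in just 1, against 40.6% of all regions. Such a region can enter through the condition where it ranks high, so a gap there follows in part from that choice. The rank of a region in a library is that of its best deposited peak there, and a library without a peak ranks after all others. A region "ranked higher" in one condition where both of its libraries stood above both libraries of the other. With 2 libraries against 2 an exact permutation test cannot give a two-sided p below 0.333, so no test was run, and counts of called regions are set beside the same counts over all regions. Untreated replicate 2 stood apart, with a median width of 380.0 bp among its 20000 highest peaks against 922.0 to 1265.5 bp in the other 5 libraries. Among 8 epithelial marker genes, 7 had a peak within 1 kb of a start in all 6 libraries, beside 51.9% of all coding genes. VIL1 had none in any library. Among 7 markers of other cell types (PTPRC, CD3E, ALB, MYOD1, GFAP, PECAM1 and COL1A1), only the collagen gene COL1A1 had one in all 6. Its ranks were 2340 to 9959, and the part of COL1A1 in any result was not tested. When only the 20000 highest peaks counted, 2 of the 8 epithelial markers and 1 of the 7 others, COL1A1, had a start peak in all 6 libraries.

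Of the 51 regions, 8 lay within 1 kb of a start of their own gene, 14 elsewhere in the gene, 24 outside it and 5 at the start of another coding gene. ITGB4 had 12 regions, PLAU 9, ITGA6 7, PLAUR 6, LAMA3 5, ITGA2 and MMP7 4 each, LAMB3 3 and MMP1 1. A peak was present in all 6 libraries at 29 of the 51 (56.9%), against 46.8% of all regions. The distance limit left out regions at PLAU and ITGB4 that lay 52817 and 52853 bp from a start. The first had a peak only in untreated replicate 2, at rank 21375, and the second ranked 1332 to 5497 in the 6 libraries. Also left out were LAMA3 and MMP7 regions at 52884 and 53243 bp, and PLAU and PLAUR ones at 54152 and 59633 bp. TNFα ranked lower than cobimetinib at the left-out ITGB4, LAMA3 and MMP7 regions, and overlapped it at the PLAU and PLAUR ones just named. Just inside the limit, at 48746 bp, was an MMP7 region whose ranks are given with that gene.

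Sequences of some of the regions and promoters are shown first, as examples. They come from hg38 or, for promoters, from RefSeq on the same build, where 7 of the 9 genes had an entry, and MMP1 and ITGB4 are named only. Capitals mark AP1 words, TGAGTCA or its reverse complement TGACTCA, and matches to the NF-κB consensus, each searched on both strands. The first set holds promoters, from 250 bases before to 50 bases after a start, on the strand of the gene. It shows the epithelial LAMA3 start at chr18:23872770-23873069 with 2 AP1 words, the inner LAMB3 start at chr1:209651325-209651624 with 1, and the MMP7 start at chr11:102530698-102530997 with 1. The promoters of the outer LAMB3 starts and of ITGA2, ITGA6 and PLAU hold no AP1 word and are not shown. That of PLAUR, with 1, is not shown either. The PLAU entries are for starts at positions 73910610 and 73911132, not for the first annotated start at 73909177. The region at that first start held 2 AP1 words, 1159 bases before and 257 bases after it.
LAMA3 promoter: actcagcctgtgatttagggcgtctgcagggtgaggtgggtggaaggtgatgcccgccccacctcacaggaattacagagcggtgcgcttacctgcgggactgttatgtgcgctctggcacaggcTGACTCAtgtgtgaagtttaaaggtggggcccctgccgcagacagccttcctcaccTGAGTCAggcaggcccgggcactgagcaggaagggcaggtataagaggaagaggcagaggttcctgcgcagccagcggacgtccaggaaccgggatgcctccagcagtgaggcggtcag
LAMB3 promoter: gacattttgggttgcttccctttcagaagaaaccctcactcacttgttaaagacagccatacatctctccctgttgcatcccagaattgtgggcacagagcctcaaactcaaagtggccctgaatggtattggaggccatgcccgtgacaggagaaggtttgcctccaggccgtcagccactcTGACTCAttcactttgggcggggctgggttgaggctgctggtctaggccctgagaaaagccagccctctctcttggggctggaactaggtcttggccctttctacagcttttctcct
MMP7 promoter: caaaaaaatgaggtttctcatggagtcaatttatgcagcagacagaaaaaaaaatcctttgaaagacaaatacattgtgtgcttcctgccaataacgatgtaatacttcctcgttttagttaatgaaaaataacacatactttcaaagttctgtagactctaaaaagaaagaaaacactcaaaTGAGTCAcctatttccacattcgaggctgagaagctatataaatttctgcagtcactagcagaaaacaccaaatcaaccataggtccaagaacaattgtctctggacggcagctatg

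The second set holds 200-base stretches of the plus strand from 4 regions where TNFα ranked higher than cobimetinib. These are the LAMA3 intron region at chr18:23828568-23828767, the region upstream of PLAU at chr10:73907116-73907315, the far upstream region of MMP7 at chr11:102580146-102580345 and the ITGA2 intron region at chr5:53008881-53009080. The last sequence is from the region upstream of ITGB4 at chr17:75697345-75697544, where TNFα ranked lower, and which holds no such word over its whole 1077 bp. Each stretch was placed to hold the most AP1 words of its region, or at the region centre where there was none, so a word there follows from that choice. These stretches do not stand for all regions of either direction, whose shares with an AP1 word are given below.
LAMA3 intron: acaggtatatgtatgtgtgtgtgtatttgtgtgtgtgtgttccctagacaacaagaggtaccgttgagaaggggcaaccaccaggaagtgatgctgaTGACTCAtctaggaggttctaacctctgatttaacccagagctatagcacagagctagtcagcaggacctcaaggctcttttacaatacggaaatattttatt
PLAU upstream: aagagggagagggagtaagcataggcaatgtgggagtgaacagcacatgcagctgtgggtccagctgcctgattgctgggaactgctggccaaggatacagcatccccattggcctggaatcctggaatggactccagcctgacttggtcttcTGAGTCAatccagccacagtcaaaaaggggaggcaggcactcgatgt
MMP7 far upstream: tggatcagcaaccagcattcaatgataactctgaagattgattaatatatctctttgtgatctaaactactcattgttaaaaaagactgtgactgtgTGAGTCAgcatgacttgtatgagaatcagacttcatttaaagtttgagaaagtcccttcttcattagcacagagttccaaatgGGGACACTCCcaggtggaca
ITGA2 intron: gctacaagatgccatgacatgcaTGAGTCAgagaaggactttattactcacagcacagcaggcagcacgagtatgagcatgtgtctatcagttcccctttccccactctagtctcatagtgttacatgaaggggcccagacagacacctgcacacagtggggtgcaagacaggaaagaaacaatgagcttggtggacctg
ITGB4 upstream: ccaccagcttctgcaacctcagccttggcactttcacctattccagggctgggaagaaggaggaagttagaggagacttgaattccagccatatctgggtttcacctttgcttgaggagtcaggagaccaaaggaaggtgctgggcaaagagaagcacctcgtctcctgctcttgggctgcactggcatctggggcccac

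AP1 words were common at these genes. Within 1001 bases at the region centre, 23 of the 51 regions (45.1%) held one, against 32.7% of all 38598 regions, and the NF-κB consensus was found in 9 (17.6%) against 15%. Among RefSeq promoters, 4 of the 11 entries for these genes held an AP1 word (36.4%), against 4.95% of 35116 entries, and 2 held the NF-κB consensus (18.2%) against 5.91%. These 11 entries come from 7 genes and neighboring starts of one gene share bases. Both entries with the NF-κB consensus are the outer LAMB3 starts, which share the same matches, so that share rests on a single gene. Of the 13 regions of the 9 genes where TNFα ranked higher than cobimetinib 8 held an AP1 word in that window (61.5%), against 3 of the 11 where it ranked lower (27.3%). Over all regions the shares were 54% of 7842 and 29.2% of 8409. A word in the sequence is a description and does not show that a factor bound there.

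Starts were examined first. A peak lay within 1 kb of a start in all 6 libraries for 6 of the 9 genes, LAMA3, LAMB3, ITGA6, ITGB4, PLAU and PLAUR, against 51.9% of all coding genes. Untreated replicate 2 had none at ITGA2, and the MMP1 and MMP7 starts were marked only in some libraries. With the best peak near any start of a gene, TNFα ranked higher than untreated at 4 of the 9 genes (LAMA3, LAMB3, ITGA2 and PLAU) and lower at MMP1, where the background over 14928 promoters with a peak was 11.5% higher and 13.1% lower. The ITGA2 call is lost when the whole start region is compared, since the untreated replicate 2 peak there, at rank 7276, ends 1126 bp from the coding start and so falls outside 1 kb. ITGB4 is not called against untreated because untreated replicate 2 had a higher peak near a start at the end of that gene. Cobimetinib ranked higher than untreated at PLAU and MMP7 and lower at LAMB3 and MMP1, against 19% and 11.2%. TNFα ranked higher than cobimetinib at LAMA3 and LAMB3 and lower at ITGB4, against 13.7% and 25%. The LAMA3 calls compare peaks at different starts. The best peak lay near the start at position 23827404 in both TNFα libraries and untreated replicate 1. In untreated replicate 2 and both cobimetinib libraries it lay near the start at 23873020, where TNFα ranked below cobimetinib.

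**Figure D1:**
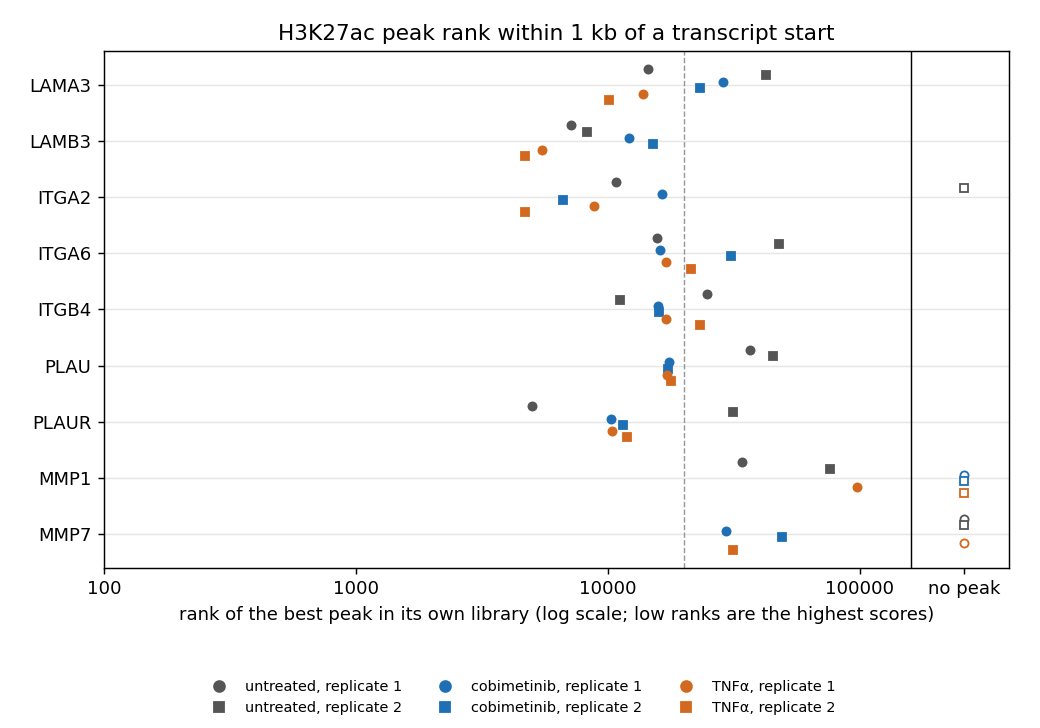
Rank of the best H3K27ac peak within 1 kb of any transcript start (horizontal axis, log scale, rank 1 is the highest score) for each of the 9 genes, with circles for replicate 1, squares for replicate 2, open symbols for no peak and a dashed line at rank 20000. The LAMB3 ranks run from the TNFα libraries (5458 and 4692) through untreated (7165 and 8297) to cobimetinib (12106 and 15063).

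LAMB3 encodes the β3 chain, found in laminin-332, and lies on the minus strand at chr1:209614870-209652425. Its start region (chr1:209650995-209653602) covered exonic sequence and ranked 7165 and 8297 in untreated cells, 12106 and 15063 under cobimetinib and 5458 and 4692 under TNFα. The conditions did not overlap in any pairing, with TNFα above untreated and untreated above cobimetinib. The nearest TNFα and cobimetinib ranks differed 2.22-fold, and the nearest ranks to untreated 1.31-fold and 1.46-fold. The outer starts lay inside the best peak in all 6 libraries.

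The inner LAMB3 starts, about 1 kb into the gene, fell in a separate peak in most libraries. At position 209651334 that peak ranked 16214 and 13643 under TNFα and 30214 and 32216 under cobimetinib. Untreated replicate 1 covered both groups of starts with a single peak of 2412 bp at rank 7165, and untreated replicate 2 had no peak over the inner start. The LAMB3 sequence shown above is the promoter of the RefSeq start at position 209651374, between the annotated inner starts, and its AP1 word begins 67 bases before that position.

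A further region upstream of LAMB3 (chr1:209656986-209657912, 4561 bp from the start) showed the same contrast between treatments. Its ranks were 12361 and 8446 under TNFα and 27935 and 39532 under cobimetinib, with nearest ranks 2.26-fold apart. The untreated ranks of 9413 and 31498 overlapped both. The last LAMB3 region, 3152 bp upstream, had a peak only in TNFα replicate 1, at rank 19480.

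**Figure D2:**
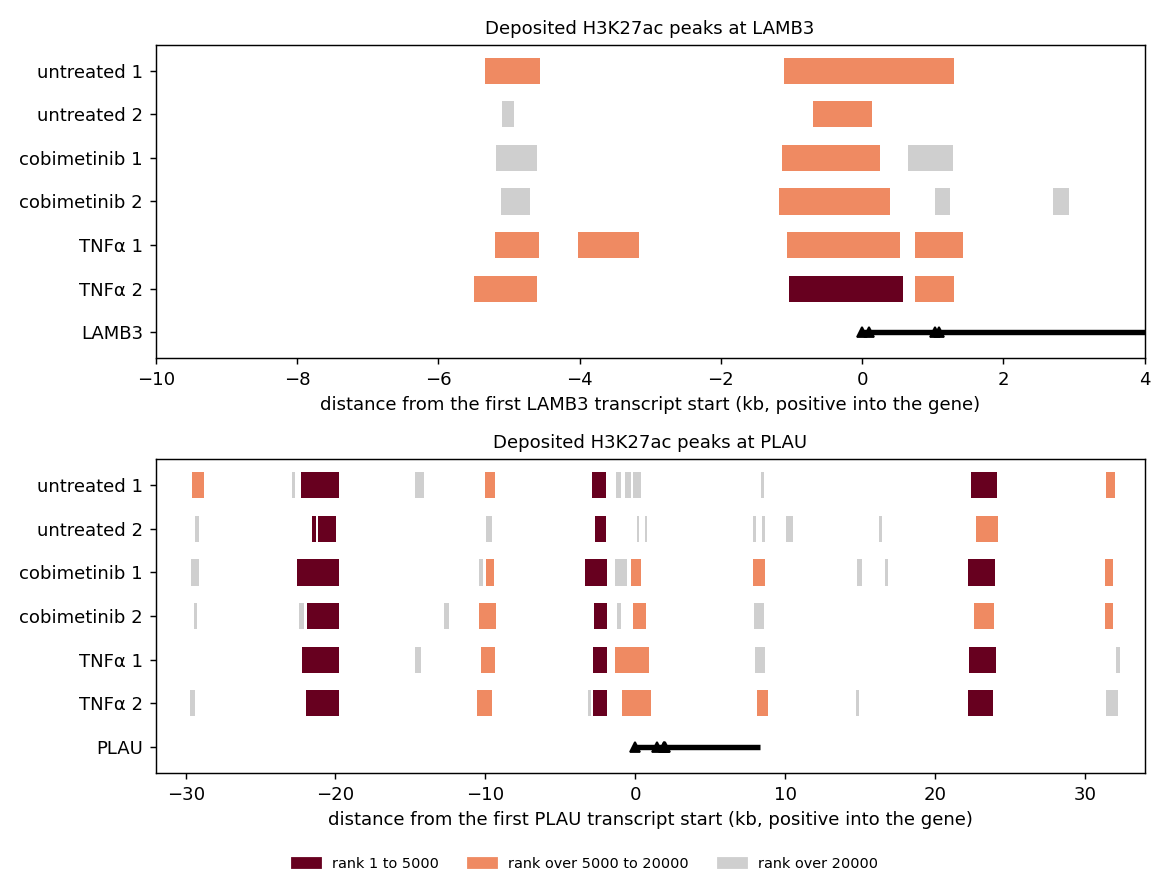
Deposited H3K27ac peaks at LAMB3 and PLAU by library, drawn at their distance in kb from the first transcript start and colored by rank class, with triangles for annotated starts and a black bar for the gene. At LAMB3 the peak about 5 kb upstream is within the 20000 highest in both TNFα libraries and in untreated replicate 1, and at PLAU the peaks over the first start are wider in the TNFα libraries (2224 and 1897 bp) than in the rest.

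LAMA3 encodes the α3 chain and spans chr18:23689453-23956222 on the plus strand. Its only region within 1 kb of a start (chr18:23828153-23829177) lay in an intron, 749 bp from the start of a retained-intron transcript. It ranked 14393 and 16076 in untreated cells, 30214 and 17372 under cobimetinib and 13739 and 10127 under TNFα. The order was that of LAMB3, but the gaps were small, 1.08-fold between untreated and cobimetinib, 1.05-fold between TNFα and untreated and 1.26-fold between the treatments. In untreated replicate 2, rank 16076 is a score of 45, and a score of 44 has rank 21375. A score lower by 1 would thus place that library below cobimetinib replicate 2 and undo the order.

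The internal coding start of LAMA3 at position 23873020, whose promoter is shown above, did not follow that order. Its best peaks ranked 21482 and 42366 in untreated cells, 28678 and 23257 under cobimetinib and 29612 and 62410 under TNFα. All lay outside the 20000 highest of their lists. TNFα overlapped untreated and stood below cobimetinib in both libraries, the reverse of the call at the intron region. The outermost start had a peak only in untreated replicate 1 and cobimetinib replicate 2, at ranks 26211 and 62629.

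An exonic LAMA3 region at chr18:23844779-23845933, 5983 bp from a start, went the other way. It ranked 15235 and 28413 under cobimetinib against 86479 and 81532 under TNFα, 2.87-fold apart. In untreated cells it ranked 21910 in replicate 1 and had no peak in replicate 2. The highest LAMA3 region, singled out after its values were seen, lay in an intron 29105 bp from a start and held 3 AP1 words, and its ranks of 1083 to 6166 overlapped between all conditions.

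ITGA2 spans chr5:52989340-53094779 on the plus strand. Its start region (chr5:52987313-52989739) ranked 10785 and 7276 in untreated cells, 16403 and 6648 under cobimetinib and 8792 and 4692 under TNFα, and all pairs of conditions overlapped. The region held 2 and 1 peaks in untreated cells, 3 and 2 under cobimetinib and 1 in each TNFα library. In untreated replicate 1 and both cobimetinib libraries a separate peak lay past the coding start. What differed was whether a single peak spanned that start. The TNFα peaks were 2427 and 1994 bp wide and ran 387 and 117 bp past the coding start at position 52989352. The upstream peak ended 82 and 1126 bp before that start in the untreated libraries and 471 and 504 bp before it in the cobimetinib libraries. Of 20020 coding genes 23 (0.115%) had a start inside a peak in both TNFα libraries and in no other, a pattern that was looked for after the ITGA2 values were seen. Untreated replicate 1 missed it by the 82 bp given above.

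An ITGA2 intron region (chr5:53008881-53009145, 19441 bp from a start) had peaks only under TNFα, at ranks 25102 and 19263. Since the other 4 libraries had no peak, the gap was bounded by the length of their lists, at 2.78-fold or more against cobimetinib and 3.46-fold or more against untreated. Its AP1 word is the one shown above. The TNFα peaks were 1031 and 265 bp wide, and the first of them fell outside the 20000 highest.

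ITGA6 (chr2:172427354-172506459, plus strand) showed no ordering at its start. The start region ranked 15697 and 47866 in untreated cells, 16100 and 30658 under cobimetinib and 16953 and 21451 under TNFα, with all pairs overlapping. The gene held 6 more regions, all intronic. One at chr2:172449764-172450410 ranked 21566 and 16059 under TNFα, had no peak under cobimetinib and ranked 30516 in untreated replicate 1 with none in replicate 2. Another at chr2:172480549-172481235 ranked 19430 and 31451 under cobimetinib, had no peak under TNFα and ranked 60344 in untreated replicate 1 only. The treatments thus differed in opposite directions within one gene, by at least 3.24-fold and 2.95-fold. The first region held 2 AP1 words and the second 1.

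ITGB4 spans chr17:75721328-75757818 on the plus strand and encodes the β4 chain. Its start region (chr17:75720929-75722462) ranked 24741 and 34025 in untreated cells, 15805 and 15927 under cobimetinib and 16953 and 23205 under TNFα. Each treatment stood above untreated, by 1.55-fold under cobimetinib and 1.07-fold under TNFα, and TNFα stood 1.06-fold below cobimetinib, a call that is lost when ranks are taken as a percent of the list. A small region near the last ITGB4 start, 862 bp away and also close to GALK1, had a peak in untreated replicate 2 alone, at rank 11168.

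Upstream of ITGB4, cobimetinib ranked higher at a pair of regions. The one at chr17:75696907-75697983, 23345 bp from the start, ranked 12520 and 10332 under cobimetinib, had no peak under TNFα and ranked 35737 in untreated replicate 1 with none in replicate 2. The gap between the treatments was at least 7.41-fold, the widest among the 51 regions, and this is the ITGB4 sequence without a marked word. The region was among the 51 only through the cobimetinib libraries, so its gap follows in part from that choice. It lies 4361 bp from a start of SAP30BP, nearer than to ITGB4. The other (chr17:75706638-75707870) lies at the start of SAP30BP and ranked 4214 and 6454 under cobimetinib against 18009 and 16717 under TNFα and 20160 and 109255 in untreated cells. Neither region of the pair can be assigned to ITGB4 rather than to SAP30BP from these data.

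PLAU (chr10:73909177-73917496, plus strand) encodes urokinase. Its start region (chr10:73907849-73910199) ranked 36734 and 45068 in untreated cells, 17447 and 17372 under cobimetinib and 17209 and 17835 under TNFα. Each treatment ranked at least 2-fold above untreated, by 2.11-fold for cobimetinib and 2.06-fold for TNFα, and the treatments overlapped. As a percent of the list the values were 42.2% and 36.1% in untreated cells, 16.4% and 24.9% under cobimetinib and 14.9% and 19.2% under TNFα. On that scale each treatment still stood above untreated, but the nearest values were less than 2-fold apart. Peak width differed where rank did not, at 406 and 169 bp in untreated cells, 686 and 852 bp under cobimetinib and 2224 and 1897 bp under TNFα. These are widths of the best peak, and all peaks in the region together covered 1322 and 338 bp in untreated cells, 1450 and 1093 bp under cobimetinib and 2224 and 1897 bp under TNFα. By covered length TNFα stood above the other conditions, while untreated and cobimetinib overlapped. Of the 5 annotated PLAU starts, the coding start at position 73911132 had a peak within 1 kb only in TNFα replicate 2, at rank 17835.

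The exonic PLAU region at chr10:73917047-73918021, named after its values were seen, repeated the pattern of the start. It ranked 63957 and 75835 in untreated cells, 15529 and 39532 under cobimetinib and 23089 and 17835 under TNFα. A region 28759 bp upstream (chr10:73879574-73880418) ranked lower under TNFα, with no peak in replicate 1 and rank 64541 in replicate 2, against 20631 and 23257 under cobimetinib, 2.78-fold apart. Untreated ranks there were 19587 and 62095. That region lies 4983 bp from a start of CAMK2G, and the data do not assign it to either gene.

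A high-ranking PLAU region (chr10:73905847-73907315, 1862 bp before the first start) was also named after its values were seen. It ranked 1055 and 774 in untreated cells, 1684 and 1390 under cobimetinib and 739 and 644 under TNFα. The treatments stood 1.88-fold apart, untreated stood 1.32-fold above cobimetinib, and TNFα stood 1.05-fold above untreated. With ranks as a percent of the list, the TNFα values of 0.639% and 0.694% overlapped the untreated values of 1.21% and 0.62%. Its AP1 word, 1908 bases before the first start, is in the PLAU sequence shown above.

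PLAUR (chr19:43646095-43670547, minus strand), the urokinase receptor, showed no ordering at its start. That region (chr19:43668275-43670958) ranked 5018 and 31498 in untreated cells, 10280 and 11497 under cobimetinib and 10373 and 11921 under TNFα. No PLAUR region differed 2-fold between the treatments. The highest of them, 29919 bp upstream (chr19:43700466-43702288), ranked 6110 and 5235 in untreated cells, 3422 and 777 under cobimetinib and 2478 and 9157 under TNFα, so cobimetinib stood 1.53-fold above untreated and TNFα overlapped both. It lies nearer to a start of IRGC, at 13788 bp.

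MMP1 and MMP7, the interstitial collagenase and matrilysin, lie on the minus strand of chromosome 11 and had the lowest-ranking marks of the 9 genes at their starts. Near MMP1 starts (chr11:102789401-102798160) peaks ranked 34087 and 75835 in untreated cells and 97281 in TNFα replicate 1, and the other 3 libraries had none. At the MMP7 start (chr11:102520508-102530750) peaks ranked 29452 and 48930 under cobimetinib and 31470 in TNFα replicate 2, with none in the rest. Neither gene had a start peak among the 20000 highest of any library.

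The only MMP1 region (chr11:102808050-102808579, 9890 bp upstream) ranked 37132 and 15621 under cobimetinib against 86479 in TNFα replicate 1 and no peak in replicate 2, 2.33-fold apart. Untreated replicate 1 ranked 27497 and replicate 2 had no peak. All 4 MMP7 regions lay outside the gene. The far upstream one (chr11:102579496-102580816) ranked 13157 and 8446 under TNFα, 54939 and 21375 in untreated cells and had no peak under cobimetinib. TNFα stood 1.62-fold above untreated and at least 5.31-fold above cobimetinib. Besides both TNFα libraries, only untreated replicate 2 had this region among its 20000 highest peaks. Its score there, 44, is the cutoff score of that list, shared by 7102 peaks, so that entry rests on a tie. The gap may thus follow in part from how regions were chosen. The region lies 2791 bp from a start of MMP20 and 48746 bp from that of MMP7, and the data do not assign it to either. A pair of nearer MMP7 regions, named after their values were seen, moved in opposite directions. At 20659 bp the ranks were 2423 and 1112 under cobimetinib and 10250 and 3818 under TNFα, and at 32881 bp they were 14179 and 7480 against 6776 and 1111. The latter region lies nearer to a start of MMP20, at 18437 bp.

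**Figure D3:**
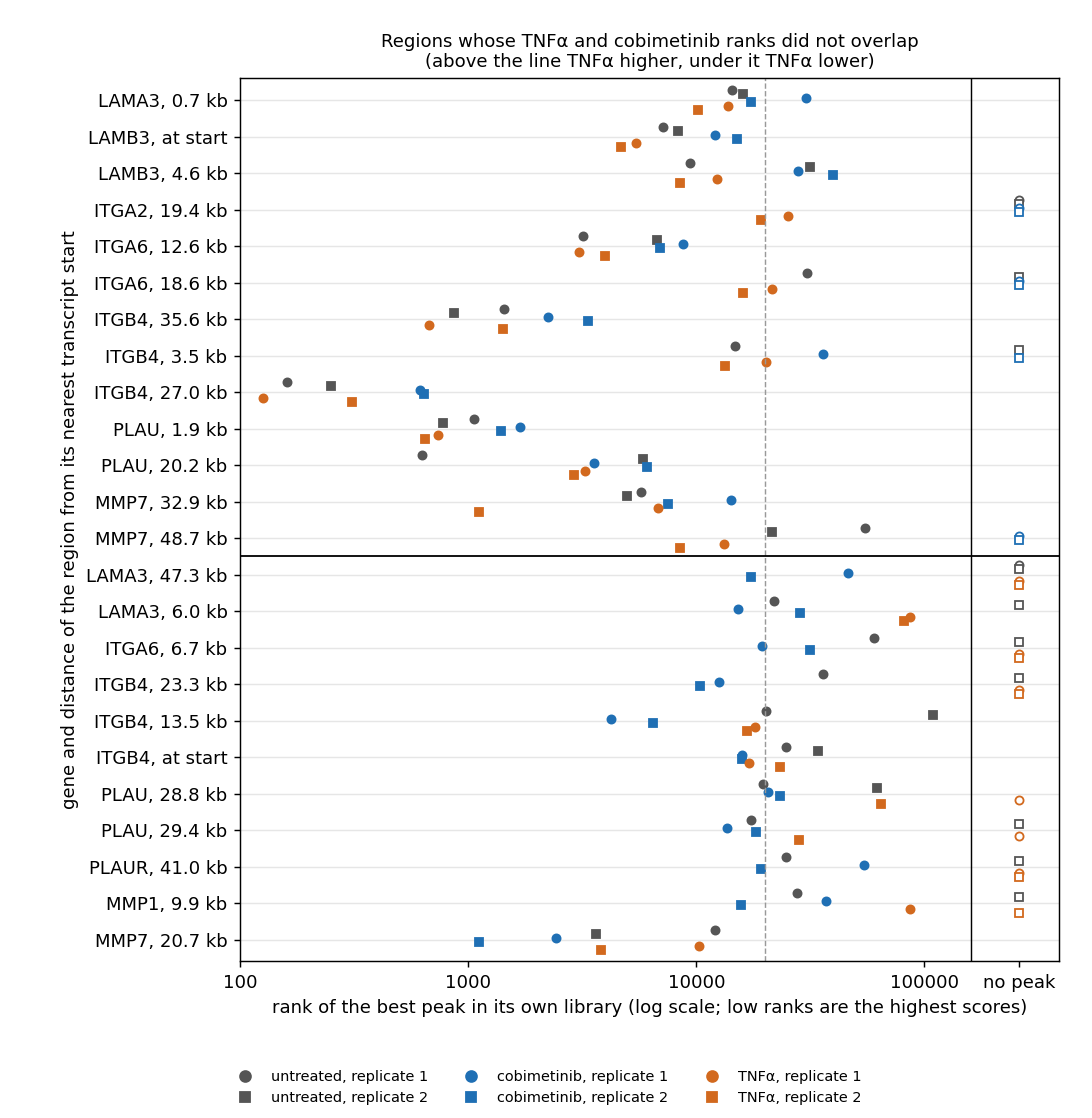
Ranks in the 6 libraries (horizontal axis, log scale) for the 24 regions whose TNFα and cobimetinib ranks did not overlap, labelled by gene and distance in kb from its nearest start, with open symbols for no peak and a dashed line at rank 20000. In the upper 13 the TNFα libraries stand to the left of both cobimetinib libraries and in the lower 11 to the right, while untreated replicates often lie on both sides.

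Counted over all 51 regions, TNFα ranked higher than cobimetinib at 13 (25.5%) and lower at 11 (21.6%), beside 20.3% and 21.8% of all regions. At least 2-fold, it ranked higher at 5 (9.8%) and lower at 6 (11.8%), beside 8.15% and 7.42%. Some of these regions were among the 51 only through libraries of the condition that ranked higher there. Among the 2-fold calls they were the ITGA2 and ITGA6 regions, the exonic LAMA3 one, the MMP1 one and the ITGB4 one at 23345 bp. Among the other lower calls they were a LAMA3 intron region 47258 bp from a start and a PLAUR region at 41011 bp. Both of these entered through cobimetinib replicate 2 alone. The far upstream MMP7 region entered through TNFα and, by a tied score, through untreated replicate 2. The genes split in both directions: LAMB3 and ITGA2 had only higher calls, with 2 and 1, PLAUR and MMP1 only lower calls, with 1 each, and LAMA3, ITGA6, ITGB4, PLAU and MMP7 had both. Without cobimetinib replicate 1 the counts were 20 higher and 17 lower (27.6% and 32.5% of all regions). Without TNFα replicate 1 the lower count was 20 (31.5% of all), and without TNFα replicate 2 the higher count was 22 (30.4% of all). Leaving out a library can only raise such a count, since fewer libraries must then agree.

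Against untreated cells, TNFα ranked higher at 11 regions (21.6%) and lower at 2 (3.92%), beside 17% and 9.37% of all regions. The lower calls were both at PLAU. Without untreated replicate 2 the counts were 15 (29.4%) and 16 (31.4%), beside 22% and 32.2% of all regions, so the lower calls were then at about the background share. Without untreated replicate 1 they were 27 and 6, beside 43.5% and 34.8%. Without TNFα replicate 1 they were 18 and 6, beside 28.3% and 15.9%, and without TNFα replicate 2 they were 23 and 4, beside 28.6% and 14.4%.

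Cobimetinib ranked higher than untreated at 9 regions (17.6%) and lower at 8 (15.7%), beside 19.3% and 11.2%. Without untreated replicate 2 the counts were 10 and 24, beside 24.1% and 31.8% of all regions, and without untreated replicate 1 they were 27 and 13, beside 44% and 35.7%. The higher count was 15 without cobimetinib replicate 1 (30% of all regions) and 14 without cobimetinib replicate 2 (30.5%). Each treatment was set against the same untreated libraries, so these counts are not independent.

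**Figure D4:**
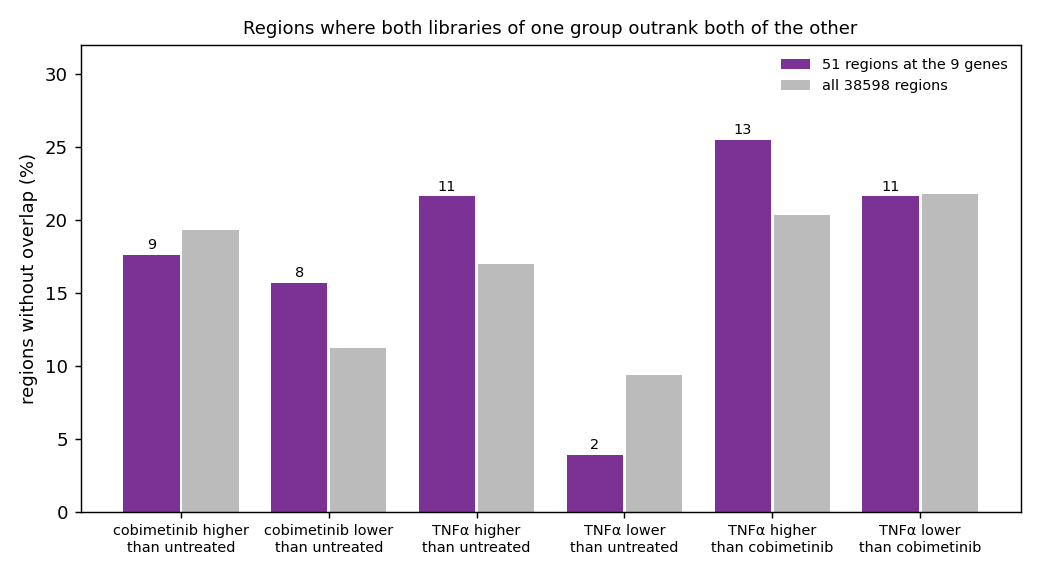
Percent of regions in which both libraries of one condition ranked above both of the other, for the 51 regions at the 9 genes (purple, counts above the bars) and all 38598 regions (gray), in 6 directed comparisons. The purple bar is higher than the gray one for TNFα above cobimetinib (25.5% and 20.3%) and lower for TNFα below untreated (3.92% and 9.37%).

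The full order with TNFα above untreated above cobimetinib was met by 4 of the 51 regions, at LAMA3, LAMB3, PLAU and MMP7, beside 755 of 38598 (1.96%). The opposite order was met by none, beside 1.2%. This order was chosen after the ranks were seen. With ranks as a percent of the list the count was again 4, but the LAMB3 region 4561 bp upstream took the place of the PLAU region. Without untreated replicate 2 it was 6 (7.14% of all regions), and without TNFα replicate 2 it was 7 (2.87%). In the central window 2 of the 4, those of LAMA3 and MMP7, held an AP1 word, and the words of the LAMB3 and PLAU regions lay outside it.

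Across libraries, the total length covered by peaks within 50 kb of the starts was 58.8 to 70.4 kb in 5 libraries and 33.2 kb in untreated replicate 2. The number of all peaks there was 95 to 107, with 102 in untreated replicate 2. Among the 20000 highest peaks that library had 22 there, against 30 to 33 in the rest, so it differed in width and in high-ranking peaks. Within 1 kb of starts it covered 4.9 kb, against 10.5 to 16.5 kb in the rest. Widths involving untreated replicate 2 were therefore not compared with those of other libraries, apart from the PLAU and ITGA2 starts where both untreated libraries are given.

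The 24 related genes of adhesion and proteolysis were counted in the same way at their starts. A peak lay within 1 kb of a start in all 6 libraries for 14 and in none for 6, 5 of which were among the 8 metalloproteinase and inhibitor genes (MMP9, MMP10, MMP13, MMP2 and TIMP3). All coding genes had such a peak in all 6 libraries in 51.9%. TNFα ranked higher than cobimetinib at 5 of the 24 and lower at 5, beside 13.7% and 25% of promoters. Those shares are over promoters with a peak in any library, while the 24 include the 6 without one, which cannot be called. The 2-fold calls were PLAT, tissue plasminogen activator, with 5187 and 3202 under TNFα against 16403 and 15332 under cobimetinib, and ITGB1, the β1 integrin chain, with 3244 and 1994 against 489 and 683. PLAT ranked 4429 and 62095 in untreated cells and ITGB1 1241 and 1429, so ITGB1 stood in the order of cobimetinib above untreated above TNFα.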

How the data were processed

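H3K27ac CUT&RUN peak lists of 6 HCT116 libraries were analysed, 2 each untreated, cobimetinib and TNFα. Per the labels and the study's methods, the authors aligned reads to hg38 with BWA 0.7.15 and called peaks with MACS2 2.1.1 in each library separately, without IgG. The deposited score of a peak is a whole number of at least 20 in every list, and the peak names of untreated replicate 2 carry a note of merging and resequencing. The deposited lists hold no read counts, so the study's count comparison could not be repeated. The precision of a rank is known only from the spread of 2 libraries and from tied scores, which were most frequent at rank 20000 in untreated replicate 2.

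Peaks were ranked by score within their list, with ties at their average rank. The 20000 highest peaks per library were merged within 100 bp, and a region took the best overlapping peak (1 bp or more). Where a library had no peak, its list length plus 1 stood in for the rank in fold gaps. Starts and genes came from GENCODE 44, promoters from RefSeq (hg38). Named regions were those within 1 kb of a start, then per gene up to 3 others that differed 2-fold between TNFα and cobimetinib, or else the highest one. Related genes were named by the same 2-fold rule at their starts. The genes, lists and rules were chosen with earlier results of these data known. A marker gene and a related gene are not reported here and enter no count. Scripts used Python 3.11.15, numpy 2.4.6, pandas 2.3.3 and matplotlib 3.10.9, and were tested on simulated peaks against bedtools 2.31.1. Alternatives varied the number of peaks, ties, rank scale, overlap, distances and the libraries kept.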

Additional observations from a re-analysis of the deposited data

How the results depend on the processing

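No paired analysis was possible because the results come from no test to which a block could be added, and the labels do not say that libraries with the same replicate number share a culture or day. Merging other numbers of peaks changed how many regions were counted. With 10000 peaks per library there were 21, of which 3 ranked higher under cobimetinib than untreated, 4 higher and 1 lower under TNFα than untreated, and 2 lower under TNFα than cobimetinib. With 40000 there were 109, and cobimetinib ranked higher than untreated at 19, TNFα lower than untreated at 5 and TNFα lower than cobimetinib at 22. Within 20 kb of starts (32 regions) cobimetinib ranked lower than untreated at 4, TNFα lower than untreated at 1, and TNFα higher and lower than cobimetinib at 8 and 6. Within 100 kb (79 regions) cobimetinib ranked higher than untreated at 16, TNFα higher and lower than untreated at 17 and 4, and TNFα lower than cobimetinib at 18. Leaving out 1 library gave 10 to 27 (cobimetinib higher than untreated), 11 to 24 (cobimetinib lower), 15 to 27 (TNFα higher than untreated), 4 to 16 (TNFα lower), 18 to 22 (TNFα higher than cobimetinib) and 12 to 20 (TNFα lower). Fewer libraries must then agree, which by construction raises the counts. Best rank for ties, percent of the list and an overlap of 50% left each of these counts within 1.5 times its value. Genes with a start peak in all 6 libraries numbered 6, but 1, LAMB3, when only the 20000 highest peaks counted. Of 89 recomputed values 56 were within 1.5 times the reported one, 33 were not, and for those without a statement above the cause was not tested.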
